A study of Mus musculus with 14 samples.

Results

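Protein disulfide isomerases and the endoplasmic reticulum (ER) oxidase Ero1l are 10 of the 24411 genes counted in mouse liver RNA: P4hb, Pdia3, Pdia4, Pdia5, Pdia6, Txndc5, Txndc11, Erp29, Erp44 and Ero1l. They were listed by name as members of this enzyme family, with no measured threshold, and all 10 passed the filter on low counts that left 9644 genes tested. The samples were livers of male littermates aged 5 to 7 months, all carrying loxP-flanked Rbbp5 alleles (Rbbp5 flox/flox). Animals called WT lacked Alb-Cre, and animals called LKO were Alb-Cre (+/-). In LKO the albumin promoter drives Cre in hepatocytes, and liver cells without Cre activity keep the gene. Rbbp5 encodes a core subunit of the histone H3 lysine 4 methyltransferase complexes. Each mouse received 500 µl of 3% DMSO in PBS into the abdominal cavity between 9 and 10 in the morning, as vehicle or with tunicamycin at 0.05 mg/kg, and the liver was taken 8 h later. Tunicamycin blocks N-linked glycosylation, so that glycoproteins misfold in the ER. The groups were WT vehicle (3 libraries), WT tunicamycin (3), LKO vehicle (4) and LKO tunicamycin (4). LKO vehicle libraries 3 and 4 were near duplicates and were counted as 1 sample, giving 3 LKO vehicle samples and 13 samples in all.

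Disulfide isomerases carry thioredoxin-like domains, and most of them form, break and rearrange disulfide bonds in proteins that fold in the ER. The oxidase Ero1l accepts electrons from P4hb and passes them to oxygen, so that P4hb can oxidise new substrates. Hepatocytes secrete albumin, clotting factors and lipoproteins, whose disulfide bonds are made by this machinery. Several members are known targets of the unfolded protein response, the programme by which ER stress raises transcription of ER folding genes through ATF6, XBP1 and ATF4.

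Reads on gene strands numbered 6507018 to 13519421 per library, of which the ribosomal gene Rn45s took 72.5 to 75.5%. The members together held 4441 to 10092 reads per library, and the thinnest value was 43 reads, for Ero1l. Levels are given in CPM, depth-scaled counts, here with TMM library sizes. Rbbp5 was at 4.07, 6.41 and 5.10 CPM in WT vehicle, 5.37, 5.03 and 5.71 in WT tunicamycin, 4.15, 1.898 and 2.79 in LKO vehicle, and 2.80, 3.12, 3.46 and 2.06 in LKO tunicamycin. LKO was lower by group mean under both treatments (edgeR quasi-likelihood, log2 fold change -0.87 with vehicle, adjusted p = 0.330, and -0.90 after tunicamycin, adjusted p = 0.105), but LKO vehicle sample 1 lay within the WT vehicle range. The labels do not tie each library to an animal, so p-values measure the spread between these samples. In bulk liver RNA, fewer cells of a type and less RNA per cell cannot be told apart. Transcript levels are not protein or enzyme levels.

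P4hb, the namesake isomerase and also a subunit of prolyl 4-hydroxylase and of the microsomal triglyceride transfer protein, was the most abundant member per transcript length. The deposited FPKM, a count of fragments corrected for depth and for the length of the transcript, averaged over the 4 group means, was 43.6 for P4hb. Pdia3, which works with calnexin and calreticulin on glycoproteins, followed at 22.8 FPKM, Pdia4 at 16.3 and Pdia6 at 10.1. Lower levels were seen for Txndc5 (7.28 FPKM), Erp29 (4.08), Erp44 (3.65), Pdia5 (2.66), Txndc11 (1.37) and Ero1l (1.17). The oxidase was thus the least abundant transcript of the set and P4hb, its main substrate, the most abundant. Neighbours in this order overlapped in their ranges over samples in all 9 pairs, and were least separated for Erp29 and Erp44, where Erp29 was higher in 9 of 13 samples. P4hb exceeded Pdia3, Pdia4 exceeded Pdia6, Txndc5 exceeded Erp29 and Pdia5 exceeded Txndc11 in 13 of 13 samples. The column of LKO vehicle library 2 had a total FPKM of 99386 against 156509 to 169701 in the others.

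**Figure D1:**
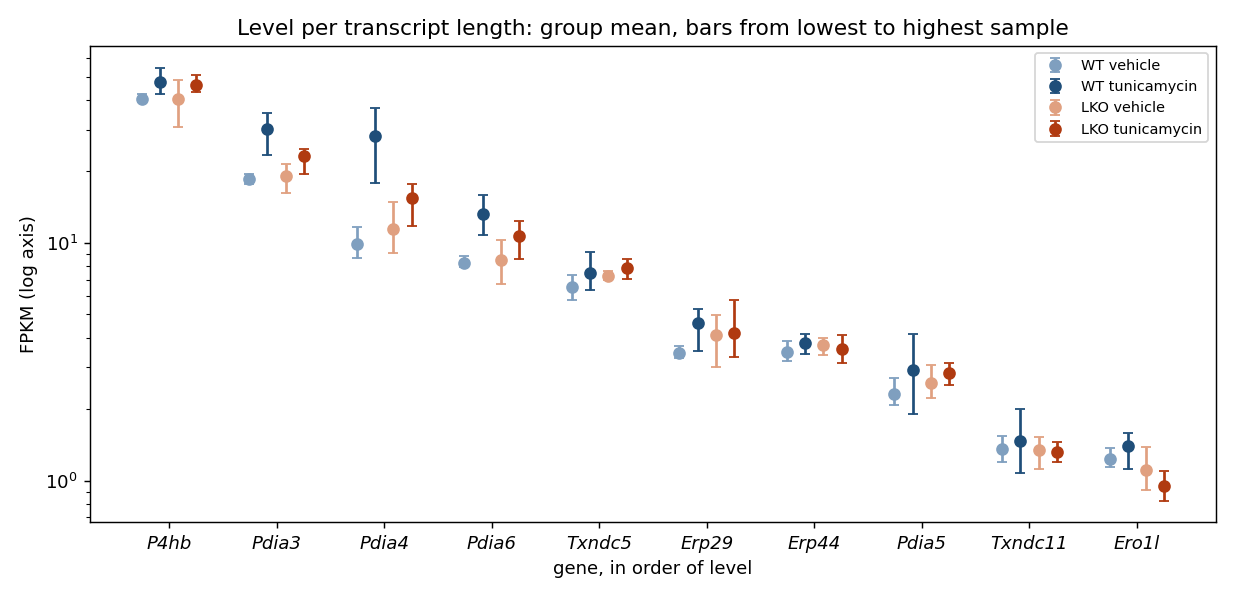
Deposited FPKM (log axis) of the 10 genes in order of level, with the mean of each group as a point and bars from the lowest to the highest sample. P4hb stood highest (43.6 over the group means) and Ero1l lowest (1.17), and Pdia4 in WT tunicamycin (28.2) lay near Pdia3 in the same group (30.1).

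In WT liver, tunicamycin raised Pdia4 and Pdia3, and the other 8 members had positive log2 fold changes that did not pass the test. Pdia4, an isomerase with more thioredoxin-like domains than P4hb, was at 58.4, 54.8 and 69.5 CPM with vehicle and at 229.5, 128 and 209 CPM with tunicamycin. The lowest treated sample was above the highest vehicle sample. Pdia4 rose 3.10-fold (log2 fold change 1.63 ± 0.22 SE, 95% interval 1.17 to 2.10, edgeR adjusted p = 0.00711), and it had the smallest p of the 9644 genes. Pdia3 was at 147, 148 and 166 CPM with vehicle and at 290.5, 219.5 and 278.5 CPM with tunicamycin, again without overlap. Pdia3 rose 1.71-fold (log2 fold change 0.77 ± 0.16, edgeR adjusted p = 0.0417). These 2 of 10 members called higher stand beside 0.29% of all genes tested called higher, and 0.363% called in either direction. Of all 35 calls 28 were higher, whereas with total-count scaling 22.3% of 148 calls were higher.

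Pdia6, an isomerase that binds the chaperone Hspa5 and acts on the stress sensors IRE1 and PERK, was at 50.7, 49.3 and 51.6 CPM with vehicle and at 98.4, 74.1 and 85.2 CPM with tunicamycin in WT. Its fold, 1.70, was close to that of Pdia3, but the adjusted p was 0.0617 (edgeR, log2 fold change 0.77 ± 0.17). P4hb was at 279, 274 and 267 CPM with vehicle and 374, 341 and 349 CPM with tunicamycin, which is a log2 fold change of 0.38 with an edgeR adjusted p of 0.254. The 3 vehicle samples of P4hb and of Pdia6 differed little from each other, with coefficients of variation of 2.25% in both. Txndc5, an isomerase also known as ERp46, was at 34.8, 39.0 and 41.4 CPM and then at 57.1, 46.2 and 47.4 CPM (log2 fold change 0.39, edgeR adjusted p = 0.128). Erp44, which retains Ero1l and immature secreted proteins in the early secretory pathway, was at 29.2, 28.6 and 26.4 CPM and then at 35.6, 30.0 and 37.4 CPM (0.29, edgeR adjusted p = 0.275). In these 4 genes, as in Pdia3 and Pdia4, all 3 treated samples were above all 3 vehicle samples. Such separation upward held for 6 of 10 members, against 8.63% of all genes tested.

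The remaining 4 members overlapped between the WT groups. Pdia5 was at 16.5, 14.2 and 16.2 CPM with vehicle and 23.3, 14.6 and 20.7 CPM with tunicamycin (log2 fold change 0.32, edgeR adjusted p = 0.352). Erp29, a member without a catalytic cysteine pair that aids secretion, was at 8.74, 7.69 and 7.43 CPM and then at 12.1, 8.43 and 12.8 CPM (0.48, edgeR adjusted p = 0.323). In both genes the overlap came from tunicamycin sample 2. Txndc11, a membrane-bound member, was at 11.02, 11.8 and 8.31 CPM and then at 13.8, 9.73 and 10.0 CPM, a log2 fold change of 0.11. Ero1l was at 7.18, 8.71 and 8.89 CPM with vehicle and 9.91, 8.11 and 8.64 CPM with tunicamycin, a log2 fold change of 0.11 with a 95% interval from -0.20 to 0.42 (edgeR adjusted p = 0.779). The interval for Ero1l excludes a rise as large as that measured for Pdia3 or Pdia6. The median log2 fold change of the 10 members was 0.38, against 0.01 for all genes. All 10 were above zero with TMM or RLE scaling and 8 with total-count scaling, which moved the median of all genes to -0.18 and put Txndc11 and Ero1l at -0.07. Both then still lay above that median.

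The calls in WT depended on single libraries. Pdia4 was not called when sample 1 of either WT group or sample 2 of WT vehicle was left out, and those fits called 0 of all genes. The fits on FPKM called no member (range of Pdia4 over all alternatives: log2 fold change 1.38 to 1.85, adjusted p 4.71e-09 to 0.152). Pdia3 was called in 5 of 13 fits with a sample left out, not without any of the 3 WT vehicle samples, WT tunicamycin 1 or any of the 4 LKO tunicamycin samples (all alternatives: 0.59 to 0.89, adjusted p 0.000449 to 0.229). Pdia6, not called in the main fit, was called in 3 of 13 fits with a sample left out and in 3 of 12 other alternatives. Txndc5 was called in 1 of 13 fits with a sample left out.

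**Figure D2:**
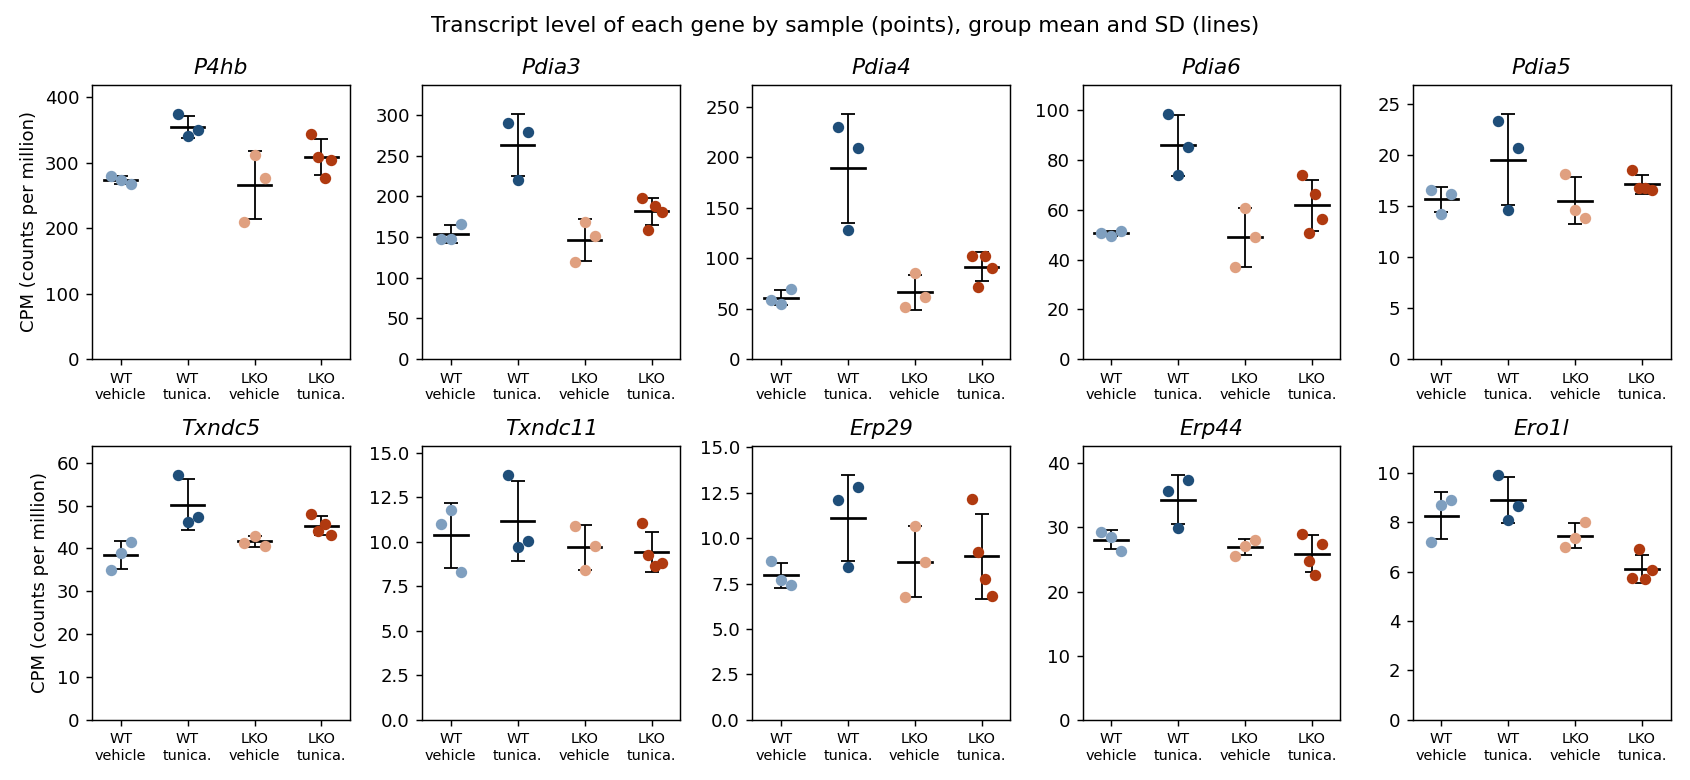
Level of each gene in CPM (vertical axes from 0) in the 13 samples by group, with points for samples, a long line for the group mean and a bar for the SD. Pdia4 reached 128 to 229.5 CPM in WT tunicamycin and 71.8 to 102 CPM in LKO tunicamycin, and Ero1l was lowest in LKO tunicamycin (5.71 to 6.90 CPM).

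In LKO liver with tunicamycin no member was called, and the log2 fold changes ran from -0.30 for Ero1l to 0.47 for Pdia4. Pdia4 was at 51.4, 84.8 and 61.8 CPM with vehicle and at 102, 71.8, 101.9 and 90.4 CPM with tunicamycin, and tunicamycin sample 2 lay within the vehicle range. Its log2 fold change was 0.47 with a 95% interval of 0.04 to 0.90 (edgeR adjusted p = 0.366). Pdia3 was at 119, 169 and 151 CPM with vehicle and 198, 159, 188 and 181 CPM with tunicamycin (0.31, edgeR adjusted p = 0.411). Pdia6 was at 37.0, 60.8 and 49.1 CPM and then at 73.8, 50.6, 66.3 and 56.5 CPM (0.33, edgeR adjusted p = 0.435). In each of the 3 genes, vehicle sample 1 was the lowest of all 7 LKO samples. P4hb was at 209, 311 and 276 CPM with vehicle and 343, 309, 277 and 304 CPM with tunicamycin, and here vehicle samples 1 and 3-4 lay below all treated samples, the latter by less than 1 CPM. The count of called members, 0 of 10, stands beside 0.0311% of all genes. At an unadjusted p under 0.05 there were 2 of 10 members, Pdia4 and Ero1l, against 1172 of all 9644 genes. DESeq2 called 0 members.

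Ero1l lay in the other direction in LKO liver, and its groups did not overlap. It was at 6.99, 7.37 and 8.01 CPM with vehicle and at 5.73, 6.90, 5.71 and 6.08 CPM with tunicamycin. The log2 fold change was -0.30 with a 95% interval of -0.58 to -0.02, and it did not pass the test (edgeR adjusted p = 0.379). Txndc5 separated upward by a narrow margin, from 41.3, 43.0 and 40.5 CPM with vehicle to 48.1, 44.1, 45.8 and 43.2 CPM (0.12, edgeR adjusted p = 0.705). Separation was thus seen upward in 1 of 10 members, against 5.03% of all genes, and downward in 1 of 10, against 6.55%. Erp44, Erp29, Txndc11 and Pdia5 overlapped, with log2 fold changes from -0.06 for Erp44 to 0.15 for Pdia5. Under total-count scaling the members split into 6 higher and 4 lower, against 7 higher and 3 lower with TMM, because Erp29 moved from 0.02 to -0.02.

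With vehicle alone, LKO and WT livers overlapped in all 10 members, against 7.52% of all genes separated upward and 7.58% downward, and none was called (0.0415% of all genes were). By the same test 0 of 10 members had an unadjusted p under 0.05, against 786 of all 9644 genes, and DESeq2 called 0 members. The log2 fold changes ran from -0.14 for Ero1l to 0.14 for Erp29, with edgeR adjusted p from 0.836 to 0.990. For Pdia4 the difference was 0.12 with a 95% interval of -0.34 to 0.58, so that differences within that interval were not excluded. The coefficient of variation was larger in LKO vehicle than in WT vehicle in 6 of 10 members, such as Pdia6 (24.3% against 2.25%) and Pdia4 (25.9% against 12.6%). It was smaller in 4, such as Txndc5 (3.03% against 8.62%) and Ero1l (6.90% against 11.4%), and no difference in spread was tested. Without LKO vehicle 1, whose Rbbp5 lay in the WT range, Pdia4 was 0.26 higher on the log2 scale and still no member was called.

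After tunicamycin, every member was lower in LKO than in WT liver by group mean, and Pdia4 passed the test. Pdia4 lay at 71.8 to 102 CPM in the 4 LKO samples and at 128 to 229.5 CPM in the 3 WT samples (log2 fold change -1.04 ± 0.20, 95% interval -1.46 to -0.62, edgeR adjusted p = 0.0240). This 1 of 10 called lower stands beside 0.55% of all genes called lower, and 0.861% called in either direction. Of all 83 calls 53 were lower, whereas with total-count scaling 86.6% of 164 calls were higher. Ero1l had the next largest difference, with 5.71 to 6.90 CPM in LKO and 8.11 to 9.91 CPM in WT (-0.55 ± 0.14, edgeR adjusted p = 0.0770). Pdia3 lay at 159 to 198 CPM in LKO and 219.5 to 290.5 CPM in WT (-0.53, edgeR adjusted p = 0.0909). Erp44 lay at 22.5 to 28.9 CPM in LKO and 30.0 to 37.4 CPM in WT (-0.41, edgeR adjusted p = 0.103). Pdia6 lay at 50.6 to 73.8 CPM in LKO and 74.1 to 98.4 CPM in WT, where the highest LKO sample all but met the lowest WT sample (-0.48, edgeR adjusted p = 0.172). These 5 of 10 members were separated downward, against 6.58% of all genes.

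The other 5 members overlapped after tunicamycin. P4hb was at 277 to 343 CPM in LKO and 341 to 374 CPM in WT (log2 fold change -0.20), and Txndc5 at 43.2 to 48.1 CPM in LKO and 46.2 to 57.1 CPM in WT (-0.15). Erp29 (-0.32), Txndc11 (-0.26) and Pdia5 (-0.19) were also lower by group mean, with edgeR adjusted p from 0.474 to 0.556. The median over the members was -0.37, against -0.01 for all genes, and all 10 stayed below zero with total-count scaling, which moved the median of all genes to 0.14. On FPKM, Pdia5 and Txndc5 were slightly above zero. The call for Pdia4 was lost without WT tunicamycin 1 or 3 or without LKO tunicamycin 2, 3 or 4, and in a fit on these groups alone (all alternatives: -1.26 to -0.78, adjusted p 7.35e-05 to 0.301). Pdia3 was called in addition without WT tunicamycin 2 and by DESeq2.

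**Figure D3:**
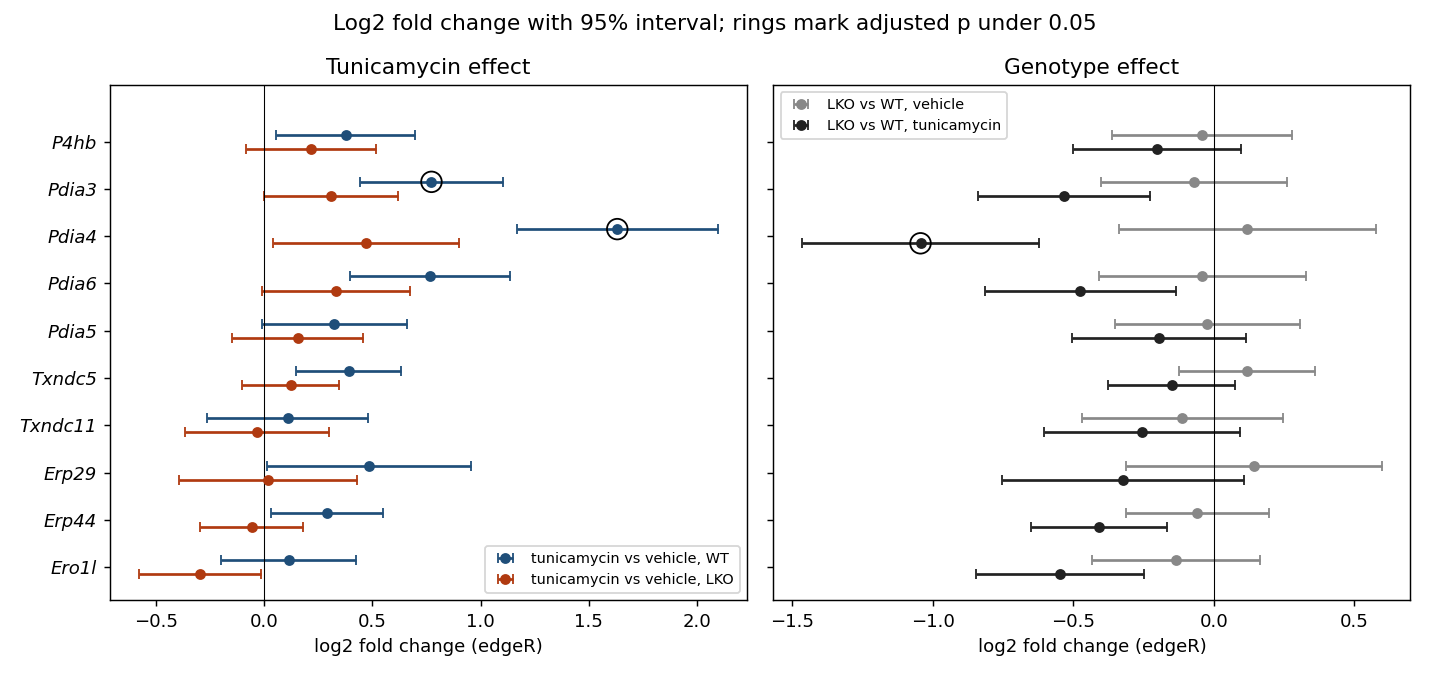
Log2 fold changes with 95% intervals for tunicamycin against vehicle in each genotype (left) and for LKO against WT under each treatment (right), where a ring marks an adjusted p under 0.05. Rings mark Pdia3 and Pdia4 for tunicamycin in WT and Pdia4 for LKO against WT after tunicamycin.

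The difference between the tunicamycin effects of the genotypes was tested as an interaction, and 0 members were called, as were 0 genes in all (0% of 9644). All 10 interaction estimates were negative, which means a smaller or more negative effect in LKO. Pdia4 had the largest, -1.16 with a 95% interval of -1.79 to -0.54 and an unadjusted p of 0.0011, but an edgeR adjusted p of 0.935, the smallest reached by any gene. Those of Pdia3 (-0.46), Erp29 (-0.47), Pdia6 (-0.43) and Ero1l (-0.41) were smaller, with edgeR adjusted p from 0.968 to 0.982. At an unadjusted p under 0.05 there were 2 of 10 members, Pdia3 and Pdia4, against 474 of all 9644 genes. DESeq2 called 0 members. Thus a difference in response between genotypes did not pass the test for any member. Its 95% interval nevertheless lay below zero for Pdia4 and for Pdia3 (-0.91 to -0.01).

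Within groups, members tended to be high or low in the same samples. WT tunicamycin sample 2 was the lowest of its group in 10 of 10 members, and sample 1 the highest in 8. LKO tunicamycin sample 1 was the highest of its group in 9 of 10, and LKO vehicle sample 1 the lowest in 7. Hspa5, the ER chaperone BiP, was at 854, 313 and 786 CPM in WT tunicamycin samples 1 to 3, against 197 to 253 CPM in WT vehicle. Ddit3, the stress transcription factor CHOP, was at 26.3, 1.30 and 20.4 CPM in the same samples, against 0.641 to 1.89 CPM in WT vehicle. Sample 2 was thus low in these stress genes as well, with Ddit3 inside the vehicle range, while its Pdia4 level of 128 CPM stayed above the vehicle range. Without sample 2, the log2 fold change of Pdia4 in WT was 1.85. Over all genes, sample 3 differed most from the rest of this group. The chi-square per degree of freedom was 25.9 for samples 1 and 3, 25.8 for samples 2 and 3 and 6.23 for samples 1 and 2. The fit without sample 3 called 615 genes with tunicamycin in WT, and that without sample 2 called 34. How far the place of sample 2 or 3 in the group bears on the results for the other members was not tested beyond leaving each out.

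**Figure D4:**
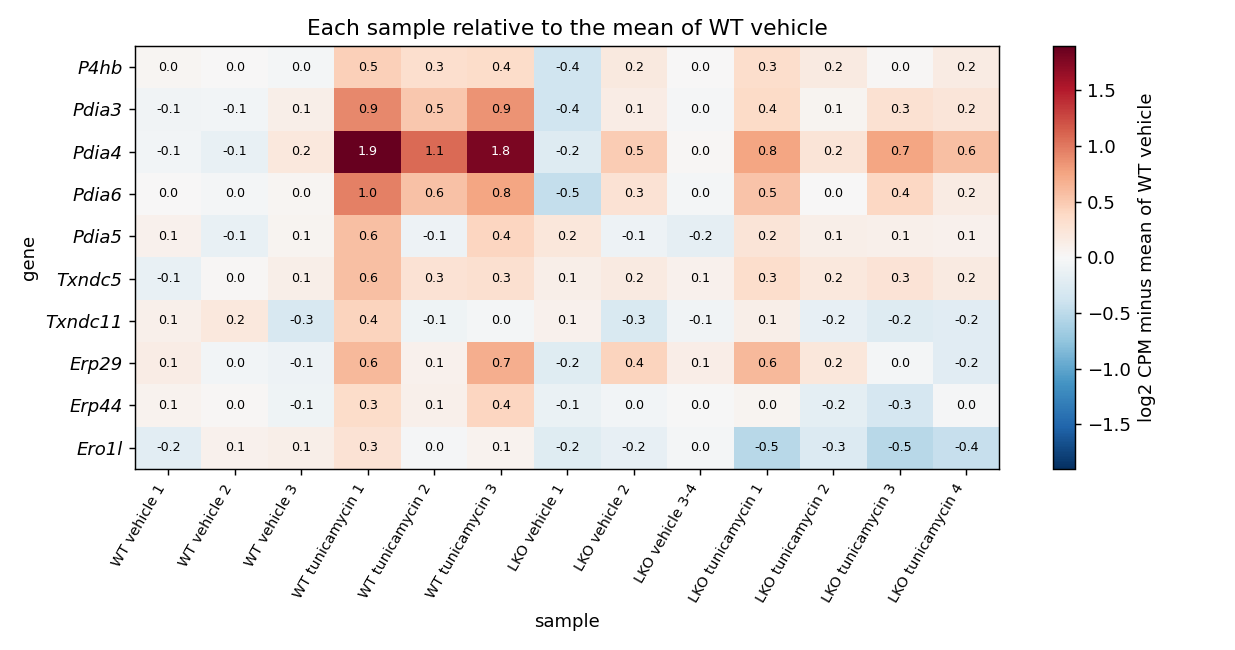
Log2 CPM of each gene (rows) in each of the 13 samples (columns) minus the mean of the 3 WT vehicle samples, with values printed and red for higher. WT tunicamycin samples 1 and 3 were above sample 2 in every row, and Ero1l was negative in all 7 LKO samples.

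In LKO tunicamycin, Hspa5 lay at 142 to 229 CPM, at or below the WT vehicle levels, and Ddit3 at 0.390 to 2.04 CPM. Pdia4 in 3 of these 4 samples (90.4, 101.9 and 102 CPM) was above all WT vehicle samples (54.8 to 69.5 CPM), and the remaining 1 was above them by a small margin (71.8 CPM). Hspa5 was lower in LKO than in WT already with vehicle, at 117 to 173 CPM against 197 to 253 CPM without overlap (log2 fold change -0.66, edgeR adjusted p = 0.557). Within LKO the log2 fold change with tunicamycin was 0.45 for Hspa5 and 0.47 for Pdia4, and neither was called.

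**Figure D5:**
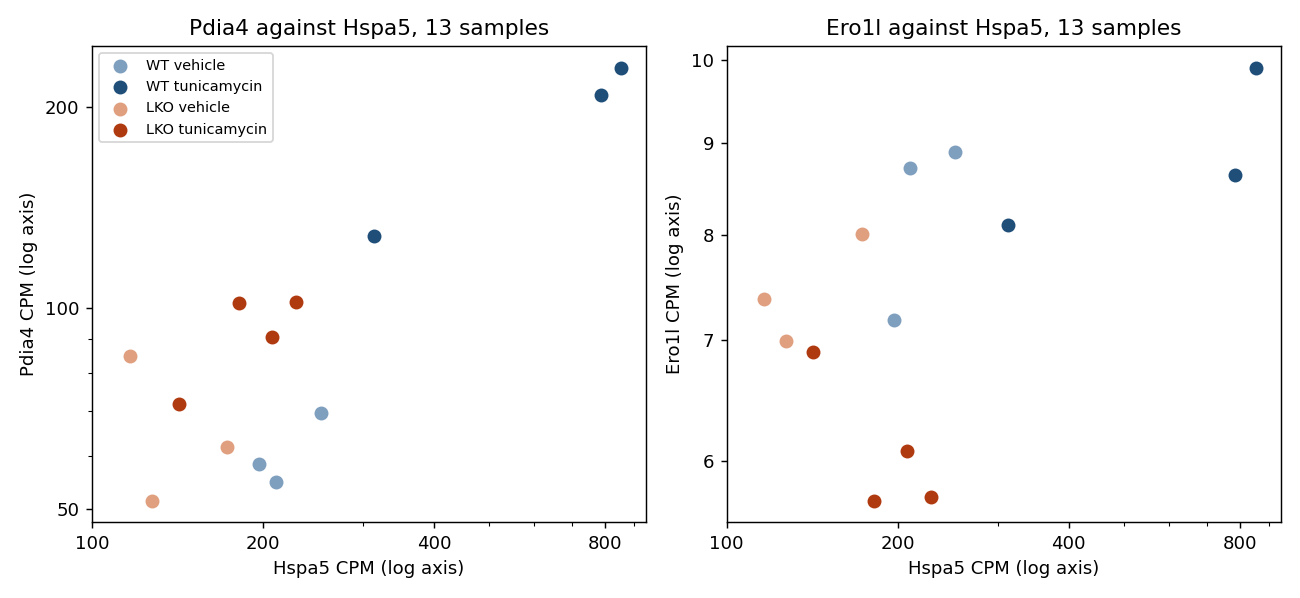
CPM of Pdia4 (left) and of Ero1l (right) against CPM of Hspa5 in 13 samples, on log axes, coloured by group. Pdia4 and Hspa5 were both highest in WT tunicamycin samples 1 and 3 (Hspa5 at 854 and 786 CPM), whereas the 4 LKO tunicamycin samples held the lowest Ero1l levels, with Hspa5 at 142 to 229 CPM.

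Patterns of log2 CPM over the 13 samples were compared with those of the genes tested other than the 10 members. Nearest to Pdia4 were Hsp90b1, Sdf2l1 and Dnajb11, chaperones or co-chaperones of the ER (root mean square difference 0.21, 0.24 and 0.29 after centring each gene). The nearest to Pdia3 were Calr, the lectin chaperone calreticulin with which it works (0.11), the co-chaperone Dnajc3 (0.11) and the tRNA methyltransferase subunit Trmt6 (0.14). Within the set, Pdia3 and Pdia6 were the closest pair, at 0.09, and Pdia4 and Txndc11 the most distant, at 0.65. Ero1l lay nearest to the calcium-entry regulator Saraf (0.11), the nuclear envelope protein Lbr (0.11) and the hepatocyte transcription factor Hnf4a (0.11), none of them an ER folding gene. These likenesses are descriptions over samples that share groups.

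Promoters are shown because Pdia4, Pdia3 and Pdia6 had the largest log2 fold changes with tunicamycin in WT liver. RefSeq sequences on GRCm38.p6, the assembly also called mm10, matched 9 of 10 members by symbol, all but Erp29, and each covers 250 bases before to 50 after the start. The ER stress element, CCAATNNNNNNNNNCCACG, is read by ATF6 with NF-Y and was searched on both strands. It occurred in 1 member, Pdia6, and in 0.119% of 32851 promoters. The 9 members have 13 promoters in the table, since Txndc5 has 3 and Txndc11 and Erp44 have 2 each. With 1 mismatch allowed in CCACG, the element occurred in 5 of these 13 promoters, from 4 members, and in 0.998% of all promoters. That search was added after the sequences and the fold changes had been seen, so its matches are printed as letters and are not related to the fold changes. The stretches are given from CCAAT onward on their own strand, and capitals mark CCAAT and the letters that match CCACG.
Pdia3: CCAATcggcggctgCCACa
Pdia4: CCAATcacgggctgCCACt
Pdia6: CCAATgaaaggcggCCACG
Erp44: CCAATcccgaagagCCcCG
The Pdia3 stretch is at chr2:121413873-121413891 on the plus strand, from 29 to 11 bases before the RefSeq start. The GENCODE M21 start of Pdia3, chr2:121413775, lies before this stretch, which by that annotation is inside the gene. The Pdia6 stretch is at chr12:17266491-17266509 on the plus strand, from 98 to 80 bases before its RefSeq start. The Pdia4 stretch reads on the plus strand at chr6:47813602-47813620, opposite to the gene, at positions -108 to -90 from the start, and that of Erp44 on the minus strand at chr4:48279743-48279761.

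The surroundings of the stretches in Pdia4 and Pdia6 are printed from the bases before both the RefSeq and the GENCODE M21 start, with capitals for CCAAT or CCACG on either strand. The Pdia4 sequence lies at chr6:47813513-47813662 and is given on the minus strand, as the gene reads. The Pdia6 sequence lies at chr12:17266439-17266544 on the plus strand.
Pdia4: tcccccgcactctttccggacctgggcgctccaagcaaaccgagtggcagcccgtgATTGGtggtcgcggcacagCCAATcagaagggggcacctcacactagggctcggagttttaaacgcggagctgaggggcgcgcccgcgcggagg
Pdia6: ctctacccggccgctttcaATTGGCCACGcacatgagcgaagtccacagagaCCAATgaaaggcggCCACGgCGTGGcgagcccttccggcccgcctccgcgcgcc
Pdia4 holds CCAAT once on each strand here, and Pdia6 holds CCAAT once on each strand and CCACG on both. Over the whole windows, CCAAT occurred in 7 of the members' 13 promoters and in 37.4% of all promoters, and CCACG in 10 of 13 and 32.8%. The XBP1 site core ACGTGG occurred in 5 of 13 (P4hb, Pdia5, Pdia6, Txndc5 and Txndc11) and in 8.31% of all. The hypoxia core ACGTG, which ACGTGG contains, occurred in 9 of 13 and 19.6%, and the C/EBP and ATF site TGATGNAA in 1 of 13 (Txndc5) and 3.97%. The second ER stress element ATTGGNCCACG occurred in 0 of 13 and 0.0365%. Promoters of 1 gene share sequence, so they are not independent. Ero1l held CCACG and ACGTG but no CCAAT in its window. Such matches describe letters only.

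Per GENCODE M21 on mm10, Pdia4 lies at chr6:47796141-47813430 on the minus strand, Pdia3 at chr2:121413775-121438687 on the plus strand, Pdia6 at chr12:17266545-17284770 on the plus strand and Ero1l at chr14:45283087-45318771 on the minus strand. The counts use the strand, so reads of genes on the opposite strand, such as Atp6v1c2 at the end of Pdia6, are kept apart. The miRNA Mir704 lies on the same strand within Pdia4, and a miRNA likewise within Erp44 and Pdia5.

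Other genes of the family are given for comparison. Of 15 further disulfide isomerase genes, 9 were tested, and none was called in any contrast. In WT liver with tunicamycin 6 of the 9 were higher and 3 lower, with a median log2 fold change of 0.14. Dnajc10, the ER reductase ERdj5, had the highest value, 0.74 (edgeR adjusted p = 0.0827), and the testis-type member Pdilt the lowest, -1.18 (edgeR adjusted p = 0.153). After tunicamycin 7 of 9 were lower in LKO, with a median of -0.14.

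Of 16 further ER thiol redox genes, 12 were tested. In WT liver with tunicamycin 10 were higher, 2 were lower and none was called, and the sulfhydryl oxidase Qsox1 had the highest log2 fold change (0.93, edgeR adjusted p = 0.132). After tunicamycin 11 of 12 were lower in LKO than in WT, and 1 was called, Ero1lb, the second ER oxidase of the Ero1 family. Ero1lb was at 27.9 to 42.1 CPM in WT and 13.8 to 21.2 CPM in LKO after tunicamycin (log2 fold change -0.98 ± 0.21, edgeR adjusted p = 0.0414). With vehicle it was at 18.7 to 25.03 CPM in WT and 8.65 to 17.98 CPM in LKO (-0.64, edgeR adjusted p = 0.472). Both Ero1 oxidases were thus without overlap lower in LKO after tunicamycin, Ero1lb with and Ero1l without passing the test.

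Of 12 genes for partner proteins, 8 were tested. In WT liver with tunicamycin Hspa5, which binds Pdia6, was called (log2 fold change 1.57, edgeR adjusted p = 0.0388). Among the partners of Pdia3, Calr was at 0.75 (edgeR adjusted p = 0.0598) and Canx, calnexin, at 0.10. The P4hb partner Mttp was at 0.02 and P4ha1 at -0.59 (edgeR adjusted p = 0.244). Of 16 ER stress marker genes tested, 8 were called higher in WT with tunicamycin, against 0.29% of all genes tested. In LKO with tunicamycin 0 were called, against 0.0311% of all genes. When the LKO and WT tunicamycin groups were compared, 10 were called lower, against 0.55% of all genes. That list was partly chosen with earlier results of these samples known, so it is not independent of them.

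Markers of liver cell types were summed in CPM beside these results and are given as 4 ranges over samples, first for WT and then for LKO, each time vehicle before tunicamycin. The 6 hepatocyte genes summed to 16093 to 18541, 13585 to 22909, 14197 to 21914 and 13274 to 18318 CPM. Of these 6 genes 5 passed the filter on low counts. Ass1 did not pass it and was at 0 reads in LKO tunicamycin, and no loss in that group can be read from this. The 6 endothelial genes summed to 63.2 to 66.5, 63.7 to 66.5, 55.5 to 79.1 and 57.2 to 75.7 CPM, and the 6 macrophage genes to 31.8 to 39.2, 35.2 to 45.1, 24.8 to 42.6 and 37.6 to 74.6 CPM.

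The 4 neutrophil genes counted summed to 0.128 to 0.875, 0.309 to 7.29, 0.474 to 2.19 and 2.53 to 6.64 CPM. S100a8, one of them, had a log2 fold change of 3.45 with tunicamycin in WT (edgeR adjusted p = 0.124). The 5 bile duct genes summed to 8.60 to 11.7, 8.49 to 42.5, 17.4 to 55.2 and 35.8 to 110.7 CPM, and Spp1 among them was at 1.68 with tunicamycin in WT and 2.23 in LKO against WT with vehicle. The 6 stellate cell genes summed to 64.4 to 105.7, 90.1 to 127, 115 to 159 and 105 to 171 CPM. All 6 had positive log2 fold changes in LKO against WT with vehicle, without overlap of the sums, with Col1a1 at 2.66 (edgeR adjusted p = 0.0794) and Col1a2 at 2.01 (edgeR adjusted p = 0.0545). With tunicamycin in WT, 4 of the 6 were higher and 2 were lower. Col1a1 was the highest of them, at 1.57 (edgeR adjusted p = 0.236), and ranged from 1.54 to 8.27 CPM over the WT tunicamycin samples. The 5 counted genes of plasma and B cells summed to at most 2.49 CPM in any sample, with Cd79a and Mzb1 at 0 reads in both WT groups, as were the neutrophil genes Elane and Mpo in WT vehicle and Elane in LKO vehicle. Of the genes of these lists that passed the filter on low counts, none was called in any contrast by edgeR, and no plasma or B cell gene passed it. The highest sums of neutrophil, bile duct, stellate cell, macrophage and hepatocyte genes were larger in WT tunicamycin than in WT vehicle, with overlapping ranges. The lowest hepatocyte sum was smaller, and of the hepatocyte genes tested 2 were higher and 3 lower. WT tunicamycin sample 3 lay below the vehicle range for bile duct genes (8.49 CPM) and within it for neutrophil genes (0.309 CPM). The part of cell composition in the members' differences was not tested.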

How the data were processed

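Liver polyadenylated RNA of 14 libraries was analysed from deposited whole-read counts per gene, which the authors made with STAR, per the submitters' processing notes, which also name Trimmomatic, Cufflinks and mm10. Versions are not given in the sources used here. Reads on the gene's strand were used (99.5 to 99.6% of stranded reads). The deposited FPKM table, made by the authors with Cufflinks-type tools per the file headers, gave levels per length. Its 277 repeated names were left out. LKO vehicle libraries 3 and 4 gave a chi-square per degree of freedom of 1.12 (other pairs 3.38 to 25.9) and were summed. No per-sample column went unused (0 columns).

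Counts were fitted in R 4.3.3 with edgeR 4.0.16: TMM, filterByExpr, 1 mean per group over 13 samples, 9 residual degrees of freedom, the quasi-likelihood test and Benjamini-Hochberg adjustment over 9644 genes, with calls at an adjusted p under 0.05. The common biological coefficient of variation was 0.155. Alternatives used RLE or total-count scaling, no filter, 14 libraries, 2 groups only, unstranded reads, DESeq2 1.42.0, limma 3.58.1 on log2(FPKM + 1) or log2(FPKM + 0.1), and each sample left out. On simulated counts the fit was tested with known changes.

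The members were listed by name under a rule that uses no measured value, but they and the lists were chosen with earlier results of these data known. Named are the 10 members, Rbbp5, Hspa5, Ddit3, the 3 nearest patterns of called members and Ero1l, and called genes of the lists other than the ER stress markers. Called ER stress marker genes that are not among these are given only in counts. Genes of lists named without a call were chosen after their values were seen. Reads without molecular identifiers are not independent molecules, so precision was taken from the spread between samples. A planned search of protein motifs was not run.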

Additional observations from a re-analysis of the deposited data

Results flagged for a closer look

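Pdia5 in LKO tunicamycin had 1 sample apart from the others: sample 1 was at 18.5 CPM, and the other 3 samples were at 16.5, 16.7 and 16.8 CPM. The gap to the next sample was above the critical value of Dixon's test at 95% for a group of 4. LKO tunicamycin is the only group with 4 samples, so each of the 10 members was examined in that group alone. Chance flags about 1 in 20 such groups. Sample 1 was the highest of its group in 9 of 10 members.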

How the results depend on the processing

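Calls among the members depended on the processing. For tunicamycin in WT, with 2 called members, total-count scaling and a fit of only these groups called 1 (Pdia4), and the fits on FPKM called 0. The fit without the filter and DESeq2 each called 3 (Pdia3, Pdia4 and Pdia6). Fits with 1 sample left out called 0 to 4. Over all genes these fits called 0 to 615, with 615 in the fit that called 4 members and 0 in those that called no member. For LKO against WT after tunicamycin, with 1 called, a fit of only these groups and the fits on FPKM called 0, and DESeq2 called 2. There, fits with 1 sample left out called 0 to 2 members and 0 to 183 of all genes. The other 3 contrasts had 0 calls under every alternative run. Over all genes the calls in WT numbered 35, and 148 with total-count scaling, 289 without the filter, 152 with DESeq2 and 7 with only these groups. The order of members by CPM kept 6 of 10 places of the order by FPKM.

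Fits with 14 libraries called 3 members in WT, and adding a replicate block called 2 there and 1 after tunicamycin. Replicate numbers were shared by labels only: same-numbered samples correlated from -0.11 to 0.14, and 4 of 14 correlated best with their own number, so the numbers do not show pairing.

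Of 1240 log2 fold changes recomputed, 1150 kept direction and side of the threshold, 31 lost and 9 gained a call, and 50 changed sign, none of them called in the main analysis and none beyond 0.154 in size. In WT these were Txndc11 (-0.0746) and Ero1l (-0.0732) with total-count scaling, and over left-out samples Txndc11 (-0.0760 to 0.198) and Ero1l (-0.00178 to 0.17). In LKO they were Erp29 with total-count scaling (-0.0209) and, ignoring strand, Txndc11 (0.00217) and Erp29 (-0.00426), and over left-out samples Txndc11 (-0.131 to 0.0441), Erp29 (-0.15 to 0.18) and Erp44 (-0.11 to 0.0052). With vehicle, log2(FPKM + 1) gave, with or without the filter, Pdia3 0.0203, Pdia5 0.111, Pdia6 0.0139 and Erp44 0.0763, and log2(FPKM + 0.1) gave 0.0209, 0.15, 0.0135 and 0.0951. Leaving out the FPKM column of LKO vehicle 2, chosen after seeing the data, gave Pdia4 -0.00905, Pdia5 0.13, Txndc11 0.0585 and Erp44 0.0342, and 0.14 for the interaction of P4hb. Over left-out samples with vehicle the ranges were -0.17 to 0.0940 for P4hb, -0.19 to 0.0490 for Pdia3, -0.10 to 0.26 for Pdia4, -0.15 to 0.0549 for Pdia5, -0.23 to 0.11 for Pdia6 and -0.0268 to 0.26 for Erp29. After tunicamycin, log2(FPKM + 1) gave Pdia5 0.000326 and Txndc5 0.0629, and log2(FPKM + 0.1) gave 0.0150 and 0.0715. The interaction of Txndc11 ran from -0.24 to 0.0395 over left-out samples. The cause of these changes was not tested. The lowest count behind a member's value was 43 reads, for Ero1l. Genes named beside the members rested on fewer reads in some samples, down to 19 for Rbbp5, 3 for Ddit3, 4 for Pdilt and 1 for S100a8.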

Other observations

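The make-up of the set's transcript pool differed with tunicamycin in WT liver. Summed over the 10 genes, the level was 648 ± 14.2 CPM (SD, n = 3) in WT vehicle, 1028 ± 135 CPM (n = 3) in WT tunicamycin, 637 ± 106 CPM (n = 3) in LKO vehicle and 756 ± 60.1 CPM (n = 4) in LKO tunicamycin. Pdia4 made up 9.40 ± 0.968%, 18.1 ± 3.09%, 10.3 ± 1.08% and 12.1 ± 1.45% of that sum in the same order. P4hb made up 42.3%, 34.8%, 41.6% and 40.8%, and Pdia3 23.7%, 25.5%, 23.0% and 24.0%. These shares are of reads, not per transcript length, and are descriptions with no test.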
